A study of Rattus norvegicus with 4 samples.

Results

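Macrophages are the resident and recruited phagocytes of skin, and 8 genes widely used to mark them were followed through radiation dermatitis of the rat footpad. The members were Csf1r, Cd163, Mrc1, Cd68, Aif1, C1qa, C1qb and C1qc, taken by gene symbol from the 4 deposited gene tables. All 8 of 8 were found among 18957 genes and gene-like entries. Of these, 8 were listed on days 0, 3 and 6 and 7 on day 9, when C1qc was not listed. Rows were matched by symbol alone, but the 8 genes were picked with earlier results of these data known.

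Hindlimb footpad skin of Sprague Dawley rats was collected on days 0, 3, 6 and 9, and 1 library of digital gene expression tags, each 21 bases long, was made per day. The protocol gives 4 doses of 10 Gy on days 1, 2, 4 and 5, delivered as a 9 MeV electron beam at 500 cGy/min, so the day 0 skin was unirradiated, the day 3 skin came after the doses of days 1 and 2, and the day 6 and day 9 skin came after all 4 doses. The sample descriptions differ from that protocol: they name 1 irradiation each, on day 2, 4 or 5, for the libraries of days 3, 6 and 9, and they give day 1 as the extraction day of the day 0 library. No transgene or drug was named for any rat, and sex, age, number of animals, pooling and batch are not given in the labels. With 1 library per day no spread between animals can be estimated, so no test was made and every interval below covers counting error only. Differences between days therefore compare these libraries.

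Tissue macrophages depend on the CSF1 receptor for survival, and they take up dying cells, debris, haemoglobin and glycoproteins through scavenger and lectin receptors. In injured skin they are known to come both from cells already in the dermis and from blood monocytes. Macrophages are also a main source of C1q, the recognition molecule that opens the classical complement pathway and is built from the A, B and C chains encoded by C1qa, C1qb and C1qc. C1qb, C1qc and C1qa follow each other in the rat genome with 0 other protein-coding genes between them in the RefSeq gene order of the GRCr8 assembly.

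Each value rests on the copies of short tags, which start at a CATG site of the transcript. The tags that carried the counts are shown because they fix what was measured for each gene and which values could take in copies of another tag. They come from the deposited tag lists, 5′ to 3′, with each CATG in capitals.
Csf1r: CATGggaccttggtgcaaggc
Cd163: CATGtttgtgaatgtgaccac
Mrc1: CATGgcaattattgagaactg
Aif1: CATGggaaaagaagaagcagt
C1qa: CATGggggaatctgggccccc
C1qb: CATGgatgtatgatcacgggg
C1qc: CATGgggacctctgggtcgcc
Cd68, site 1: CATGgtacgcaaaaaaaaaaa
Cd68, site 2: CATGCATGgtacgcaaaaaaa

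Sites are numbered by the authors from the 3′ end of the transcript. A single tag held 99.6% of the C1qa copies, 99.0% of Aif1, 96.8% of Csf1r, 95.1% of C1qb and 94.2% of Cd163 over the 4 libraries. Mrc1 was spread over 5 tags, and the one shown held 78.5% of its copies. The leading Csf1r, Mrc1, Aif1 and C1qb tags sat at site 1, the C1qa tag at site 2, the C1qc tag at site 3 and the Cd163 tag at site 6. Cd68 differed from the others in 2 ways. Its sites 1 and 2 overlap in a CATGCATG repeat, so its leading tags are the same transcript end read 4 bases apart, and most of the site 1 tag is a run of 11 A. That site 1 tag is 1 base (C8A, counted from 1 at the 5′ end of the tag) from a tag under no gene that had 1737, 1092, 1381 and 757 copies on days 0, 3, 6 and 9, and 1 base (G9C) from a tag listed under Tspyl1. The tags 1 base from the leading tags of the other 7 genes and under no gene had at most 6 copies in any library. The share of Cd68 counts that could come from misread copies of the abundant neighbour was not tested. Site 2 tags alone are given beside Cd68 below.

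Gene counts summed to between 1952921 and 1982608 per library, from between 3360368 and 3592019 sequenced tags. Levels are given as CPM of the gene counts after TMM scaling (scaled CPM). In digital gene expression a transcript is counted through a tag and not along its length, so no length scaling applies, but capture can differ between sites, and levels are therefore compared between days of the same gene first. A gene was called higher or lower where the libraries differed at least 2-fold, the higher library had at least 50 counts and the exact 95% interval of the ratio excluded 1. The comparisons of days 3, 6 and 9 with day 0 share the same day 0 library.

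The macrophage markers were highest as a group on day 3. Their summed level was 381.3 scaled CPM (95% counting interval 354.7 to 409.3) on day 0, 948.8 (906.8 to 992.4) on day 3, 665.3 (629.6 to 702.6) on day 6 and 658.5 (622.6 to 695.9) on day 9. Relative to day 0 the sum was 2.49-fold (2.29 to 2.71) on day 3, 1.75-fold (1.60 to 1.91) on day 6 and 1.73-fold (1.58 to 1.89) on day 9. The day 6 sum was 0.701 (0.653 to 0.753) of the day 3 sum, while days 9 and 6 were within counting error of each other, at a ratio of 0.990 (0.915 to 1.07). In whole skin, more cells of a type and more RNA per cell cannot be told apart.

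On day 3, 5 of the 7 members with enough counts were called higher than on day 0 and 0 lower: Cd163, Aif1, Cd68, C1qa and Mrc1. Of the 5342 genes tested, 8.54% were called higher and 7.88% lower, 16.4% in either direction. On day 6, Cd163 and Cd68 were higher, 2 of 6 members, against 7.48% of all genes called higher and 13.1% lower, 20.6% in either direction. On day 9, Cd163, Aif1 and Mrc1 were higher, 3 of 7 members, against 10.7% of all genes called higher and 10.4% lower, 21.1% in either direction. No member was called lower than day 0 on any of the 3 later days. Averaging at least 10 counts over the libraries, 7 members had a median log2 ratio to day 0 of 1.07 on day 3, 0.91 on day 6 and 0.82 on day 9, and the median over all 9876 genes at that level was -0.01, 0.03 and -0.0004. C1qc did not reach the count minimum in any library.

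**Figure D1:**
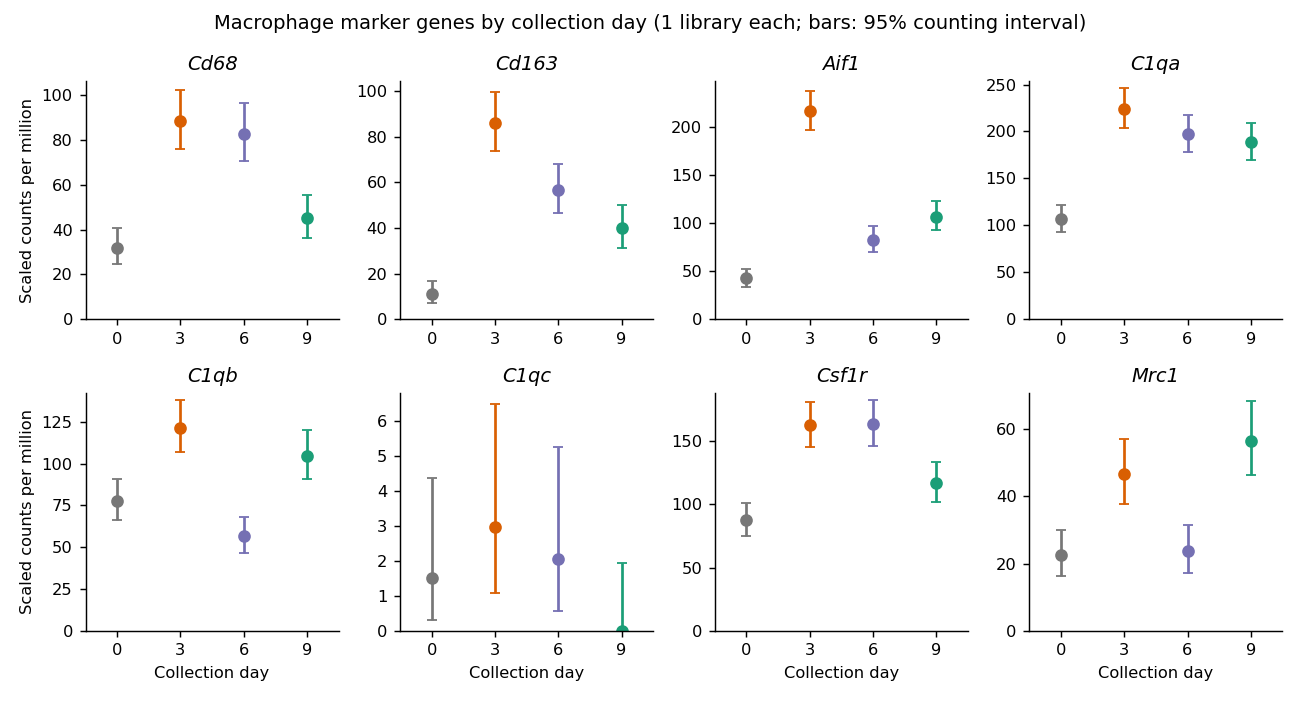
Level of each macrophage marker gene by collection day, in TMM-scaled CPM (linear axes from 0, a separate scale for each gene), with 1 library per day and bars for the exact 95% Poisson interval. Cd163, Aif1 and Cd68 stand well above their day 0 points on day 3, C1qb falls below its day 0 point on day 6, and Mrc1 is high on days 3 and 9.

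Csf1r encodes the receptor for CSF1 and IL-34, the growth factors that macrophages need. It had 175, 327, 319 and 223 counts on days 0, 3, 6 and 9, or 87.3, 162.4, 163.9 and 116.8 scaled CPM. Days 3 and 6 formed a plateau, day 9 lay between that plateau and day 0, and only the neighbouring values of days 3 and 6 were within counting error. The ratio to day 0 was 1.86 (1.54 to 2.25) on day 3, 1.87 (1.56 to 2.27) on day 6 and 1.34 (1.09 to 1.64) on day 9, each short of 2-fold. Csf1r was therefore not called in any comparison with day 0, although its intervals lay above 1.

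Cd163 encodes the scavenger receptor that clears complexes of haemoglobin and haptoglobin, and it had the largest ratio of the 8 genes on every later day. Counts were 22 on day 0, 173 on day 3, 110 on day 6 and 76 on day 9, or 10.98, 85.9, 56.5 and 39.8 scaled CPM. The level was lowest on day 0, highest on day 3 and stepped down on days 6 and 9, with each step beyond counting error. Relative to day 0, Cd163 was 7.67-fold (5.01 to 12.8) higher on day 3, 5.06-fold (3.24 to 8.55) on day 6 and 3.57-fold (2.23 to 6.12) on day 9. A second Cd163 tag, at site 8, was read 11, 6 and 2 times on days 3, 6 and 9 and was listed at 0 on day 0. Its counts were highest on day 3 as well. Haemoglobin RNA, from red cells, moved across these libraries too: Hbb had 35, 1510, 104 and 579 counts on days 0, 3, 6 and 9, and its part in the Cd163 result was not tested.

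Mrc1 encodes the mannose receptor, an endocytic lectin of tissue macrophages. It had 45, 94, 46 and 108 counts on days 0, 3, 6 and 9, or 22.5, 46.7, 23.6 and 56.6 scaled CPM. Days 3 and 9 were high and within counting error of each other, and days 0 and 6 were low and within counting error of each other. Mrc1 was 2.07-fold (1.44 to 3.04) higher on day 3 and 2.50-fold (1.76 to 3.65) higher on day 9 than on day 0. Day 6 had fewer than 50 counts and a ratio to day 0 of 1.05 (0.682 to 1.62). The leading tag alone had 39, 75, 30 and 86 copies, in the same order of days except that day 6 lay below day 0. The day 3 ratio fell short of 2-fold on that tag alone, at 1.90, and with a prior of 5 counts, at 1.97, and was then not called.

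Cd68 encodes a glycoprotein of late endosomes and lysosomes. Its counts were 64, 178, 161 and 86 on days 0, 3, 6 and 9, or 31.9, 88.4, 82.7 and 45.1 scaled CPM. Days 3 and 6 were alike within counting error and above both other days, and day 9 was above day 0 by a narrow margin. Relative to day 0, Cd68 was 2.75-fold (2.07 to 3.74) higher on day 3, 2.58-fold (1.93 to 3.52) on day 6 and 1.41-fold (1.01 to 1.98) on day 9. The tags at site 2 alone, which start with the doubled CATG, had 24, 80, 92 and 44 copies and gave ratios of 3.27 (2.08 to 5.47), 3.89 (2.50 to 6.47) and 1.91 (1.15 to 3.31). Tags at site 1 alone had 40, 98, 69 and 42 copies and gave 2.42 (1.67 to 3.62), 1.77 (1.19 to 2.69) and 1.10 (0.698 to 1.74). Relative to day 0, both sites were higher on days 3 and 6, but the day 6 ratio at site 1 was short of 2-fold. On day 9 the site 1 interval included 1. The day 6 level relative to day 3 was 0.730 (0.5275 to 1.001) at site 1 and 1.19 (0.872 to 1.63) at site 2. Both of these intervals included 1.

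Aif1 encodes IBA1, a calcium-binding protein of the actin cytoskeleton that marks macrophages and microglia. It had 85 counts on day 0, 436 on day 3, 161 on day 6 and 204 on day 9, or 42.4, 216.5, 82.7 and 106.9 scaled CPM. Day 3 stood far above the rest, and all 4 days were separated beyond counting error, in the order day 3, day 9, day 6, day 0. Aif1 was 5.08-fold (4.04 to 6.52) higher on day 3 and 2.51-fold (1.95 to 3.28) higher on day 9 than on day 0. The day 6 ratio of 1.95 (1.49 to 2.57) lay just under 2-fold.

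The C1q chains did not share 1 time course. C1qa, the most abundant of the 8 genes on every day, had 214, 452, 384 and 360 counts on days 0, 3, 6 and 9, or 106.8, 224.4, 197.3 and 188.6 scaled CPM. All 3 later days lay above day 0. Day 3 was within counting error of day 6 and day 6 of day 9, while day 9 was below day 3, at 0.841 (0.730 to 0.967). C1qa was 2.10-fold (1.78 to 2.48) higher on day 3, and its ratios of 1.85 (1.56 to 2.19) on day 6 and 1.76 (1.49 to 2.10) on day 9 were short of 2-fold.

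C1qb had 156, 245, 110 and 200 counts, or 77.9, 121.6, 56.5 and 104.8 scaled CPM. It was the one member whose day 6 level was below day 0 beyond counting error, at a ratio of 0.727 (0.564 to 0.933), and it was not called lower since that is under 2-fold. Its ratios on day 3 and day 9 were 1.56 (1.27 to 1.92) and 1.35 (1.09 to 1.67). C1qa counts per C1qb count were 1.37 (1.11 to 1.70), 1.85 (1.58 to 2.16), 3.49 (2.82 to 4.36) and 1.80 (1.51 to 2.15) on days 0, 3, 6 and 9. The day 6 value stood above those of the other 3 days, with an interval that did not overlap theirs.

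C1qc had 3, 6, 4 and 0 counts, where a limit of 3 counts for 0 corresponds to 1.57 scaled CPM on day 9 and the upper end of the plotted 95% Poisson interval is 1.93. The day 3 ratio to day 0 was 1.85 with an interval of 0.425 to 12.3, so no difference was detectable at this depth. The authors' gene counts leave out tags seen once in a library, and 2 of the C1qc tags were each read once on day 9. C1qc was therefore present in the day 9 tag list and missing from its gene table. The summed C1q chains were 1.87-fold, 1.37-fold and 1.58-fold of day 0 on days 3, 6 and 9, and the summed other 5 members were 3.07-fold, 2.10-fold and 1.87-fold.

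**Figure D2:**
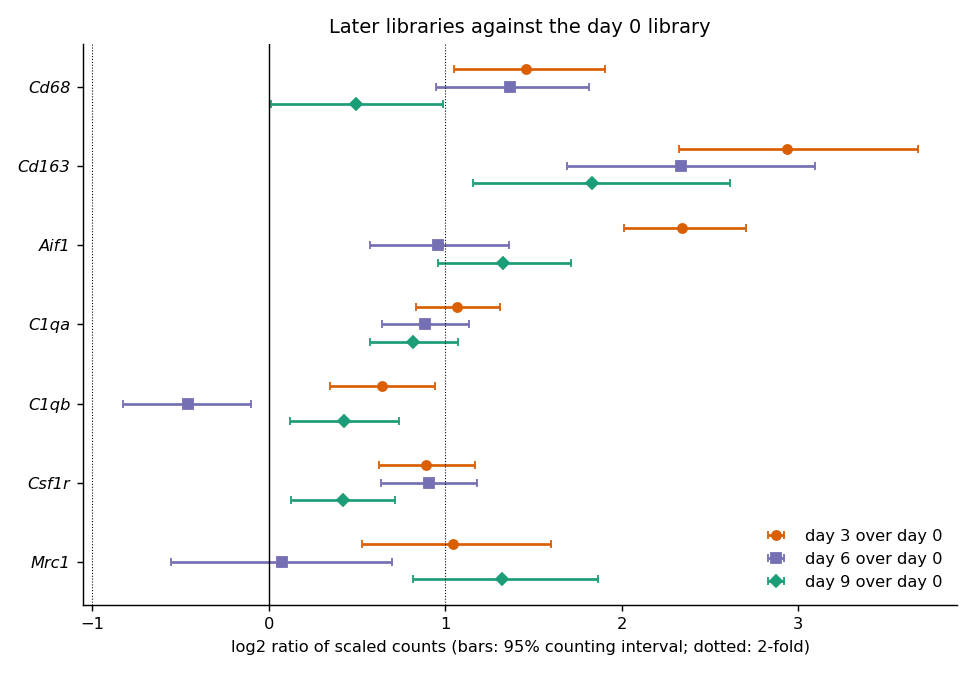
Log2 ratio of scaled counts to day 0 for 7 macrophage marker genes on day 3 (circles), day 6 (squares) and day 9 (diamonds), with bars for the exact 95% counting interval and dotted lines at 2-fold in either direction. Cd163 lies farthest to the right on each day, at 7.67-fold on day 3, and C1qb on day 6 is the point whose bar lies wholly below 0.

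Between the day 6 and day 3 libraries, Aif1 and C1qb were called lower, 2 of 7 members, against 6.74% of all 5101 genes tested. No member was called higher, against 2.88% of all genes, and 9.63% of all genes were called in either direction. Aif1 on day 6 was 0.383 (0.317 to 0.459) of day 3 and C1qb was 0.466 (0.368 to 0.584). Mrc1, at 0.509 (0.348 to 0.728), stood just outside the 2-fold rule, and it was called lower when counts were scaled by totals alone, on its leading tag alone and with the authors' CPM plus 1. Cd163 stood at 0.659 (0.513 to 0.840). Cd68, C1qa and Csf1r had ratios of 0.936, 0.879 and 1.01, each with an interval that included 1. The group thus split into members that were lower on day 6 than on day 3 and members at the same level within counting error.

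Between the day 9 and day 6 libraries, Mrc1 was called higher, 1 of 7 members, at 2.38-fold (1.68 to 3.46), against 10.0% of all 5127 genes tested. No member was called lower, against 4.37% of all genes, and 14.4% of all genes were called in either direction. C1qb was 1.85-fold (1.46 to 2.36) and Aif1 1.29-fold (1.05 to 1.60). The other direction was taken by Cd68 at 0.546 (0.414 to 0.712), Cd163 at 0.706 (0.519 to 0.952) and Csf1r at 0.713 (0.598 to 0.848). C1qa was within counting error at 0.956 (0.826 to 1.11). The near-equal summed levels of days 6 and 9 thus held members that differed in opposite directions.

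**Figure D3:**
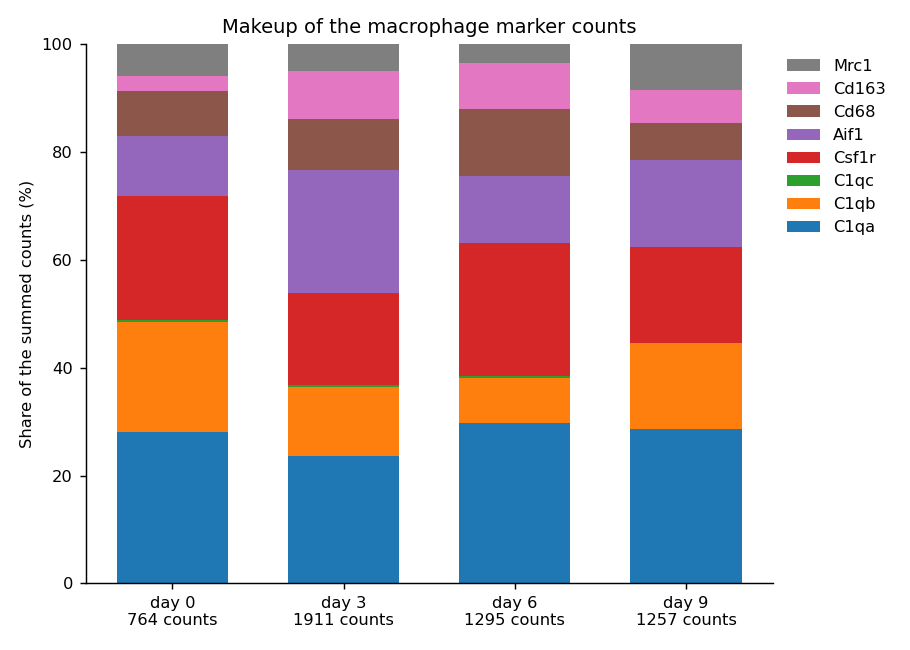
Share of each gene in the summed counts of the 8 macrophage markers, in percent, with 1 bar per collection day and the summed counts under it. Aif1 and Cd163 take larger shares on day 3 than on day 0, and C1qb takes its smallest share, 8.49%, on day 6.

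The makeup of the marker counts needs no scaling between libraries, but it rests on the same counts and need not follow the levels. A share can fall while the level rises, as for C1qb, which was 1.56-fold of day 0 on day 3. Aif1 held 11.1% (exact binomial interval 8.98 to 13.6) of the 8 genes' counts on day 0, 22.8% (20.95 to 24.8) on day 3, 12.4% (10.7 to 14.4) on day 6 and 16.2% (14.2 to 18.4) on day 9. Cd163 held 2.88% (1.81 to 4.33), 9.05% (7.80 to 10.4), 8.49% (7.03 to 10.2) and 6.05% (4.79 to 7.51). C1qb held 20.4% (17.6 to 23.5), 12.8% (11.4 to 14.4), 8.49% (7.03 to 10.2) and 15.9% (13.9 to 18.1). Aif1 and Cd163 thus took their smallest shares on day 0, where C1qb took its largest. C1qa varied least in relative terms, with shares between 23.7% and 29.7%.

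Mrc1 held 5.89%, 4.92%, 3.55% and 8.59% of the counts, Cd68 8.38%, 9.31%, 12.4% and 6.84%, and Csf1r 22.9%, 17.1%, 24.6% and 17.7%. Cd68 had its largest share on day 6, the day on which Mrc1 had its smallest. Counts of Cd163 per Mrc1 count were 0.489 (0.280 to 0.831) on day 0, 1.84 (1.42 to 2.39) on day 3, 2.39 (1.68 to 3.45) on day 6 and 0.704 (0.518 to 0.953) on day 9. These endocytic receptors therefore stood in one order on days 3 and 6 and in the opposite order on days 0 and 9. Counts of Aif1 per Csf1r count were 0.486 (0.370 to 0.633), 1.33 (1.15 to 1.54), 0.505 (0.415 to 0.612) and 0.915 (0.753 to 1.11). Days 0 and 6 were alike in that ratio, and day 3 was the one library where Aif1 exceeded Csf1r beyond counting error.

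Among these 7 members, C1qc being left out for its low counts, the closest time courses were those of C1qa and Csf1r, at a root mean square distance of 0.17 log2 units over the 4 libraries. The farthest apart were Cd163 and C1qb, at 1.06. C1qa and C1qb, chains of the same molecule, were 0.493 apart.

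Other phagocyte receptors gave a mixed picture. Of 20 listed scavenger, Fc and clearance receptor genes, 14 were measured and 4 had at least 50 counts in each comparison with day 0. On days 3, 6 and 9, 2 of the 4 were called higher and 0 lower. Across all genes tested, 8.54%, 7.48% and 10.7% were called higher and 7.88%, 13.1% and 10.4% lower. The list medians were 0.83, 0.94 and 0.44 on the log2 scale. Folr2, a folate receptor of resident tissue macrophages, had 83, 377, 335 and 163 counts on days 0, 3, 6 and 9 and was 4.50-fold (3.56 to 5.80), 4.14-fold (3.26 to 5.35) and 2.06-fold (1.57 to 2.72) higher than on day 0. Lyve1, a hyaluronan receptor of lymphatic endothelium and of some macrophages, had 132, 330, 381 and 171 counts, 2.48-fold, 2.96-fold and 1.36-fold of day 0. Both were called lower on day 9 than on day 6, at 0.497 (0.409 to 0.600) and 0.458 (0.380 to 0.549). Fcgr2b, the inhibitory Fc receptor, had 13, 31, 37 and 51 counts and was called higher on day 9 at 4.00-fold (2.21 to 8.25). Msr1, the class A scavenger receptor, had 34, 61, 64 and 29 counts, with ratios to day 0 of 1.77, 1.93 and 0.897. Like Folr2 and Lyve1, Msr1 was called lower on day 9 than on day 6. In that comparison 3 of the 4 receptor genes tested were called lower and 0 higher, against 4.37% and 10.0% of all genes.

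The rest of the complement system was also higher in part. Of 11 measured genes outside C1q, 4 of 9 with enough counts were called higher on day 3. On day 6 it was 3 of 9 and on day 9 it was 2 of 8, with 0 lower. The shares of all genes were 8.54%, 7.48% and 10.7% higher and 7.88%, 13.1% and 10.4% lower. The list medians were 1.03, 0.68 and 0.48 on the log2 scale. C1r and C1s encode the proteases that bind C1q. C1s had 185, 379, 520 and 415 counts on days 0, 3, 6 and 9, and C1r had 400, 743, 1010 and 529. Both peaked on day 6, at 2.89-fold (2.44 to 3.44) and 2.60-fold (2.31 to 2.93) of day 0, the day on which C1qb was below its day 0 level. Serping1, the inhibitor of C1r and C1s, had 320, 814, 551 and 529 counts and was 2.53-fold (2.22 to 2.89) higher on day 3. C5ar1, the C5a receptor of myeloid cells, had 21, 59, 56 and 28 counts and was 2.75-fold (1.67 to 4.84) higher on day 3 and 2.71-fold (1.64 to 4.77) on day 6.

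Among the ligands and regulators of the CSF1 receptor, 13 genes were measured, and 4, 3 and 4 had enough counts on days 3, 6 and 9 against day 0. Across all genes tested, 8.54%, 7.48% and 10.7% were called higher on these days and 7.88%, 13.1% and 10.4% lower. Lyn, a Src-family kinase of myeloid cells, was the one called higher, on days 3 and 9, and 0 were called lower. Its counts were 26, 68, 46 and 58 on days 0, 3, 6 and 9, and its ratios to day 0 were 2.57 (1.63 to 4.26), 1.81 (1.10 to 3.07) and 2.32 (1.45 to 3.88). The list medians were -0.05, 0.06 and -0.06 on the log2 scale. Csf1, one of the ligands, had 60, 45, 44 and 47 counts on days 0, 3, 6 and 9, with ratios to day 0 of 0.748 (0.495 to 1.12), 0.757 (0.50 to 1.13) and 0.824 (0.549 to 1.23). The other ligand gene, Il34, a product of keratinocytes, was measured at 26, 17, 11 and 8 counts, below the count minimum. Spi1, which encodes the myeloid transcription factor PU.1, was also below it, at 15, 35, 30 and 15 counts. Il34, Spi1 and their values were singled out after they were seen.

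Genes of lysosomal hydrolases and membrane proteins were higher in part on day 3, with 7 of 17 called higher and 0 lower. Day 6 had 4 of 14 higher and 2 lower, and day 9 had 1 of 15 higher and 0 lower. Of all genes, 8.54%, 7.48% and 10.7% were called higher on days 3, 6 and 9 and 7.88%, 13.1% and 10.4% lower, so the day 6 count of lower genes and the day 9 count of higher ones were near or below those shares. The list medians were 0.76, 0.58 and 0.54 on the log2 scale. The cathepsin genes Ctsh, Ctsk and Ctsl1 were 3.13-fold, 2.91-fold and 2.82-fold higher on day 3, with 722, 501 and 1269 counts against 229, 171 and 447 on day 0. Lamp1, a lysosomal membrane protein like Cd68, went the other way, with 902, 476, 276 and 543 counts on days 0, 3, 6 and 9 and a day 6 ratio of 0.315 (0.274 to 0.361).

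Among 12 measured genes of monocyte recruitment, 2 had enough counts in each comparison. The chemokine gene Ccl6 was called higher on all 3 later days, with 37, 90, 74 and 83 counts on days 0, 3, 6 and 9. The shares of all genes called higher were 8.54%, 7.48% and 10.7% on days 3, 6 and 9. Cd14, the lipopolysaccharide co-receptor of monocytes, had 97, 144, 155 and 102 counts and was not called. The list medians were 0.56, 0.72 and 0.14 on the log2 scale.

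Products of activated macrophages had their highest median on day 9, when that of the markers was lowest of the 3 later days. Of 16 measured genes, 2 of 8 were called higher on day 3 and 4 of 7 on day 9. Day 6 had 1 of 7 higher and 1 lower. The list medians were 0.32, 0.32 and 1.21 on the log2 scale. The day 9 median covered 12 genes, of which Chi3l1, Il1b, Ptgs2, Mmp9 and Apoe had fewer than 50 counts on both days 0 and 9. Tgfb1, Lgals3 and Apoe had day 9 ratios below 1, at 0.790, 0.593 and 0.497, and the rest above 1. The summed list was 0.791, 0.62 and 1.06 of day 0 on days 3, 6 and 9. Arg1, an arginine-degrading enzyme of alternatively activated macrophages and also of other skin cells, had 12, 58, 71 and 383 counts on days 0, 3, 6 and 9. Its ratio to day 0 was 32.2 (19.0 to 65.4) on day 9, when the summed macrophage markers were 1.73-fold. S100a8 and S100a9, listed as neutrophil genes, were also called higher on day 9, with 122 and 891 counts. They carried the summed neutrophil list, which was 13.1-fold (10.49 to 16.7) of day 0. The others measured, Cxcr2, Lcn2 and Ngp, had 6, 8 and 0 counts on day 9. The part of these genes in the day 9 values was not tested. On day 6 the counts called, 1 of 7 each way, were near the shares of all genes, 7.48% higher and 13.1% lower. On days 3 and 9 the shares of all genes called higher were 8.54% and 10.7%. Hmox1, which breaks down haem taken up through Cd163 among other sources, had 26, 60, 28 and 107 counts, high on days 3 and 9 like Mrc1. The receptor antagonist gene Il1rn had 373, 358, 558 and 781 counts, and Lgals3, which keratinocytes also express, had 2545, 1513, 809 and 1438.

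**Figure D4:**
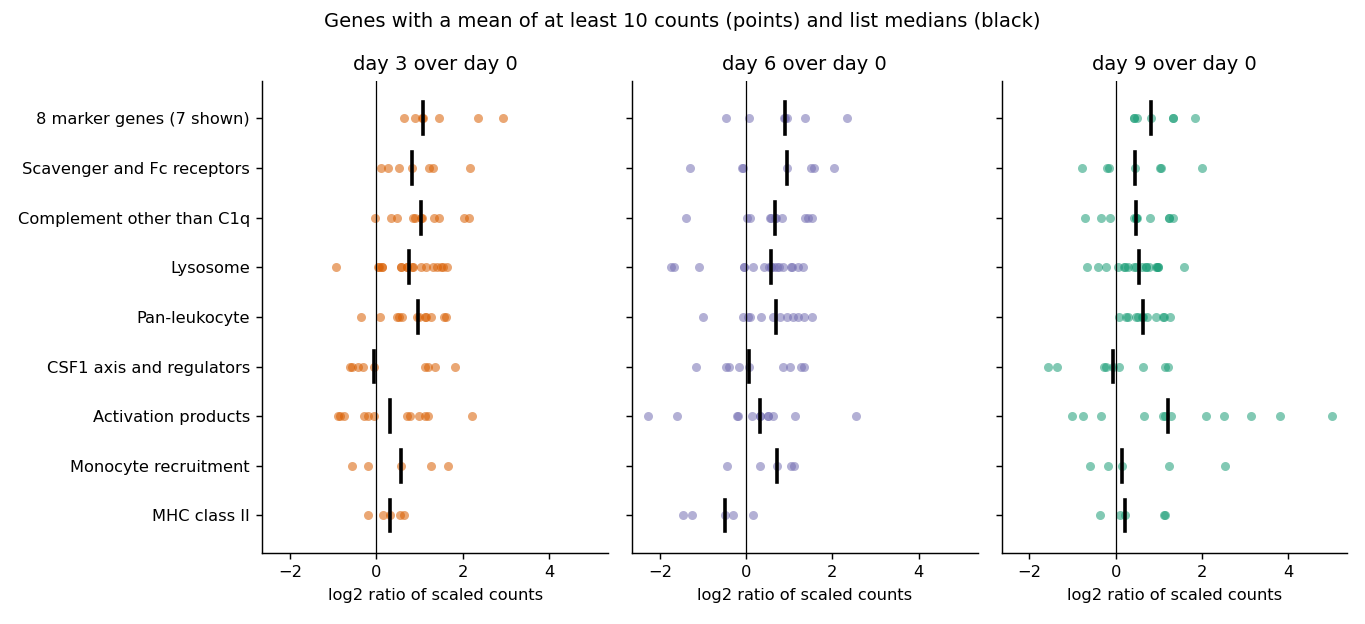
Log2 ratio of scaled counts to day 0 on days 3, 6 and 9 for the genes with a mean of at least 10 counts in the macrophage markers and in 8 related lists, 1 point per gene, with the list median as a black bar. The marker median lies at 1.07, 0.91 and 0.82 on days 3, 6 and 9, the median of the CSF1 axis stays near 0, and the activation products reach their highest median, 1.21, on day 9.

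Markers of other cells moved across the same libraries. Pan-leukocyte genes, of which 13 were measured with none at 0 in any library, summed to 513.0, 839.6, 685.4 and 740.2 scaled CPM on days 0, 3, 6 and 9. The 8 macrophage markers gave 0.743 (0.676 to 0.817), 1.13 (1.06 to 1.21), 0.971 (0.899 to 1.05) and 0.890 (0.824 to 0.961) counts per pan-leukocyte count. Relative to the pan-leukocyte genes, too, day 0 was lowest and day 3 highest. Aif1 per pan-leukocyte count was 0.0827, 0.258, 0.121 and 0.144, and Cd163 was 0.0214, 0.102, 0.0825 and 0.0538. None of the other members with enough counts was highest on day 3. Cd68, with 0.0623, 0.105, 0.121 and 0.0609, C1qa, with 0.208, 0.267, 0.288 and 0.255, and Csf1r, with 0.170, 0.193, 0.239 and 0.158, were highest on day 6. Mrc1, with 0.0438, 0.0556, 0.0345 and 0.0764, was highest on day 9 and lowest on day 6. Its day 9 interval overlapped that of day 3, and its day 6 interval that of day 0. C1qb had 0.152, 0.145, 0.0825 and 0.142, where days 0, 3 and 9 were alike within counting error.

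Mast cell genes, 6 of 9 measured, summed to 166.7, 365.4, 188.6 and 218.4 scaled CPM and also peaked on day 3. Cpa3 and Tpsab1 carried that peak, at 3.80-fold and 2.66-fold of day 0. Tpsb2 and Cma1 were not called on day 3, at 0.983 (0.714 to 1.35) and 1.29 (0.962 to 1.74). Neutrophil genes, 5 of 11 measured, summed to 40.9, 41.7, 22.6 and 538.0, with S100a9 at 34, 43, 34 and 891 counts and Cxcr2, Lcn2 and Ngp listed at 0 in at least 1 library. Of T and NK cell genes, 8 of 11 were measured and summed to 37, 22, 17 and 39 counts, and of B and plasma cell genes 2 of 7, with 3, 2, 3 and 3 counts. S100a8 and S100a9 carried the neutrophil sum, and Lcn2, another of its genes, had 0, 22, 0 and 8 counts on days 0, 3, 6 and 9. What part cells of these types had in the marker values was not tested.

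Tissue makeup differed between the libraries as well. Dermal matrix genes, 12 of 12 measured, summed to 11720, 53140, 40790 and 38210 scaled CPM on days 0, 3, 6 and 9, which is 4.54-fold (4.47 to 4.60) of day 0 on day 3, a larger ratio than that of the macrophage markers. Keratinocyte genes, the defining genes of epidermis, had 8 of 12 measured and none of them at 0, and summed to 21170, 16550, 28590 and 21310. Adipocyte genes, 6 of 8 measured, summed to 128.8, 599.3, 207.6 and 391.8. Skeletal muscle genes, 9 of 10 measured, summed to 2023, 4346 and 4078 on days 0, 3 and 9, and all 9 were at 0 on day 6. Endothelial and pericyte genes, 8 of 9 measured, summed to 113.3, 163.9, 178.8 and 163.4. Red cell genes, 3 of 5 measured, summed to 17.5, 759.2, 53.4 and 313.3. The part of tissue makeup in the marker values was not tested. With the dermal matrix, muscle, keratinocyte, adipocyte and red cell genes left out of the scaling, the summed markers were 2.50-fold, 1.71-fold and 1.73-fold of day 0 on days 3, 6 and 9, and Mrc1 was added to the members called lower on day 6 than on day 3.

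**Figure D5:**
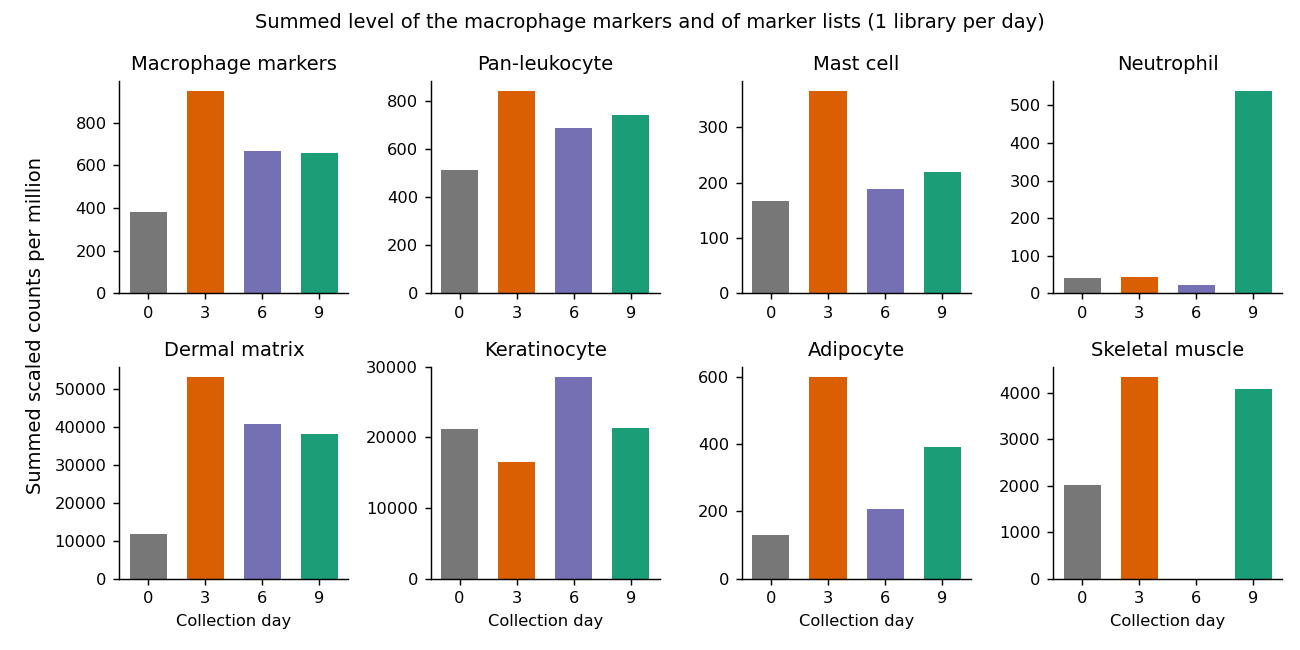
Summed level of the 8 macrophage markers and of 7 lists of other markers by collection day, in TMM-scaled CPM (bars from 0, a separate scale for each panel, 1 library per day). The macrophage, pan-leukocyte, mast cell, dermal matrix, adipocyte and muscle panels are highest on day 3. The keratinocyte panel, carried by Krt1, is highest on day 6 and the neutrophil panel on day 9, and the muscle panel is at 0 on day 6.

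The genes whose courses over the 4 libraries were most like the median course of the markers were sought among 5589 other genes with at least 100 counts in all. By root mean square distance in log2 units, the nearest 10 were Rhoc at 0.034, Gng2, Ptgis, Ptprm, Jam3, Loxl3, Glt8d1, Zmpste24, Sncg and Emid1 at 0.0625. With 4 points per gene many courses are close by number alone, and the distances are descriptive. For single members the nearest genes were Alox5ap, C5ar1 and Fbxo23 for Cd68, and Olfml1, Cgref1 and Sparc for Cd163. Alox5ap, which encodes the leukotriene activating protein of myeloid cells, had 197, 535, 478 and 255 counts on days 0, 3, 6 and 9 and lay 0.0204 from Cd68. Sparc, a collagen-binding matrix protein gene, had 5407, 41424, 29973 and 25980 counts and lay 0.206 from Cd163.

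Nearest to Aif1 were Ephx1, Dpep1 and the mast cell protease gene Cpa3, at 0.136 to 0.163. Cpa3 had 98, 376, 178 and 221 counts on days 0, 3, 6 and 9, highest on day 3 and then on day 9, like Aif1. Nearest to C1qa were the matrix proteoglycan gene Dcn, at 0.0247, then Gng2 and Jam3. C1qb was closest to Coa5, Creb3l1 and Sfrp2, Csf1r to Gap43, Wipi1 and Prkd3, and Mrc1 to Serpinb9, Tmem38b and Olfm1.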

How the data were processed

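Tags of 21 bases were sequenced from total RNA of rat footpad skin, 1 library per collection day. Gene counts are whole numbers, made by the authors, per the file headers, from the copies of a gene's tags; tags read once in a library were left out. The deposited column headed TPM holds CPM, scaled to all tags seen at least 2 times. The assembly was Rnor_6.0 per the submitters' processing notes. Not given in the sources used here are the aligner and the annotation. Grouping followed the day in the sample titles.

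Counts were scaled with TMM factors (edgeR 4.0.16) of 1.01, 1.02, 0.989 and 0.978. Ratios used a prior of 0.5 counts and an exact 95% Clopper-Pearson interval; levels have exact Poisson intervals, and a count of 0 was given a limit of 3 counts. With 1 library per day no test by edgeR or DESeq2 can be run. Likeness used log2 scaled CPM centred on each gene's mean.

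The 8 members and 19 other lists were chosen with earlier results of these data known. Named were all members, the 4 listed genes with the largest ratio to day 0 among those with at least 50 counts, and the 10 genes nearest to the median course, or 3 for a member. One gene that this rule names is not reported here. Alternatives were size factors from DESeq2 1.42.0, totals alone, totals without the 20 most abundant genes, a minimum mean count, leading tags, other minimum counts, folds and priors, and the authors' CPM plus 1. The ratio step was tested on simulated data.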

Additional observations from a re-analysis of the deposited data

How the results depend on the processing

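For the 7 members with enough counts, 280 of 280 ratios under other scalings and priors or on the leading tag alone stayed within the counting interval of the reported ratio. The leading tag held 94.2% or more of the copies of C1qa, Aif1, Csf1r, C1qb and Cd163, so it could change little there. The Cd68 ratios by site were not among the 280. Day 6 against day 0 was 1.77 at site 1 and 3.89 at site 2, outside the Cd68 interval of 1.93 to 3.52. Day 6 against day 3, at 0.730 and 1.19, also lay outside its interval of 0.7515 to 1.165. The counts of members called depended on the rule. With a minimum of 200 counts in place of 50, 2 members were called on day 3 against day 0, 0 on day 6, 1 on day 9 and 0 for day 9 against day 6. Requiring 3-fold gave 2 on day 3, 1 on day 6 and 1 on day 9 against day 0, and 0 for both day 6 against day 3 and day 9 against day 6. Requiring 1.5-fold gave 5 on day 6 against day 0, 4 for day 6 against day 3 and 3 for day 9 against day 6. These changes follow from the rules themselves. The summed ratio of day 6 to day 3, 0.701, was 0.646 without C1qa, the most abundant member. It was 0.639 with the authors' CPM plus 1, which divides by other totals than the gene counts. Those totals, of all tags seen at least 2 times, were 3247997 on day 3 and 3445925 on day 6. Gene counts made up 60.6% and 57.1% of them. The scalings without tissue lists were chosen after seeing the data. No paired analysis was possible because each day has 1 library and the labels carry no replicate numbers, and for the same reason no library could be left out. Depth limits C1qc in all libraries, and Cd163 and Mrc1 on day 0.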

Other observations

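Genes of antigen presentation, which macrophages share with dendritic cells, had sums that were lowest on day 6 and highest on day 9, each carried by a few genes. MHC class II genes, 7 of 8 measured, summed to 327.4, 418.1, 230.7 and 607.6 scaled CPM on days 0, 3, 6 and 9. RT1-Db1, a class II beta chain, had 253, 283, 176 and 534 counts, and RT1-Ba, an alpha chain, had 222, 324, 174 and 463. Both were called higher on day 9 than on day 0, at 2.21-fold (1.90 to 2.58) and 2.19-fold (1.86 to 2.58). The peptide-loading genes differed from these, with RT1-DMb at 77, 120, 31 and 57 counts and RT1-DMa at 48, 60, 52 and 49, and the list median on day 9 was 0.22 on the log2 scale. Dendritic and Langerhans cell genes, 7 of 10 measured, summed to 101.8, 149.0, 58.6 and 220.5 scaled CPM. Fscn1, an actin-bundling protein gene, made up most of that sum, with 161, 222, 95 and 346 counts. The lectin gene Clec10a, also found in macrophages, had 40, 67, 15 and 62 counts on days 0, 3, 6 and 9. The day 6 library was at 0.238 (0.123 to 0.410) of day 3 for Clec10a, against 0.509 for Mrc1, 0.466 for C1qb and 1.01 for Csf1r. These values are descriptions of 1 library per day.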
